A study of Mus musculus with 6 samples.

Results

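The granins and the enzymes that process neuropeptide precursors were examined in brain tissue of adult male C57 mice with high or low sexual motivation. The 10 genes were chosen by name, as cargo of dense-core vesicles and genes of prohormone processing (Vgf, Scg2, Scg3, Scg5, Chga, Chgb, Pcsk1, Pcsk2, Pcsk1n and Cpe). All 10 were among the 13170 genes of the deposited table, and all 10 passed the filter of a mean of at least 1 FPKM (fragments scaled to transcript length and to sequencing depth). Each group had 3 poly(A) RNA libraries, and no allele, agent or time separates the groups in the labels. The series title names the medial amygdala, the extraction protocol writes PrL, and the tissue label reads brain. How motivation was scored, the exact age, and whether a library held 1 animal or a pool are not stated in the sources used here. All p-values therefore measure only the spread between these libraries, some of which may be technical.

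Peptide hormones and neuropeptides are made as larger precursors that enter the regulated secretory pathway and are packed into dense-core vesicles. Granins are acidic proteins that aggregate with this cargo as it is sorted, and several are themselves cut into peptides. Convertases cut the precursors after pairs of basic residues, and a carboxypeptidase then trims the exposed basic residues. In the amygdala these vesicles carry many peptides of social and reproductive behaviour.

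Among the 10 genes, 8 have a promoter sequence in the RefSeq table for GRCm38.p6. Vgf and Cpe have none there, so their promoters were not searched. Several granin and convertase genes are known targets of CREB, a transcription factor that binds the cAMP response element and is activated by neuronal signalling. The 8 windows ran from 250 bases before to 50 bases after the RefSeq start. They were searched on both strands for the full element TGACGTCA, which holds the core element TGACG on each strand. That core element, inside or outside a full element, the TATA box TATAAA and the GC box GGGCGG were searched in the same way. The full element was found in 3 of 8 windows, those of Scg2, Chgb and Pcsk1, against 1.79% of all 32851 promoters in the table. The core element was found in 7 of 8 windows, which include the 3 with the full element, against 20.8% of all promoters. The GC box was found in 6 of 8, against 35.7%, and the TATA box in 1 of 8, against 13.6%. The 4 stretches printed here run from base -120 to base 20 relative to the RefSeq start (there is no base 0). The first 3 are those with a full element, and Chga is shown because its groups did not overlap in the expression data. Capitals mark the full element, the core element and, in Chga, the TATA box, and all letters are in the direction of transcription.
Scg2, chr1:79440007-79440146, minus strand: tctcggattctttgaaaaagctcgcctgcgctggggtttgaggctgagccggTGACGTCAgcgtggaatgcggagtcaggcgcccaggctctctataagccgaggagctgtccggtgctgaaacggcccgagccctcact
Chgb, chr2:132781522-132781661, plus strand: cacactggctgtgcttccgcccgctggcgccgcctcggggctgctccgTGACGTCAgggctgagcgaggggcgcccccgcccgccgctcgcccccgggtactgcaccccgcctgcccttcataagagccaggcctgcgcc
Pcsk1, chr13:75089737-75089876, plus strand: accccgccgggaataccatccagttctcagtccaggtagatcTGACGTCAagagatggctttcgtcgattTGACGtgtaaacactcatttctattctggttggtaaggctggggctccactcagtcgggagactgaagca
Chga, chr12:102554821-102554960, plus strand: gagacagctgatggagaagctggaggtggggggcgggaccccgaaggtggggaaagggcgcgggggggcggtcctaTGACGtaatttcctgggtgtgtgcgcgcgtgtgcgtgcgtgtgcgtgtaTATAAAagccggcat

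The full element began 68 bases before the RefSeq start in Scg2, 72 in Chgb and 78 in Pcsk1. Pcsk1 had a further core element 50 bases before the RefSeq start. In Chga the core element began 44 bases before the RefSeq start and the TATA box lay 6 bases after it. The gene starts in the GENCODE annotation differ from those of RefSeq. The GENCODE start lies 28 bases downstream in Chga, and 94, 364 and 31 bases upstream in Scg2, Chgb and Pcsk1. Relative to the GENCODE starts, the full elements of Scg2 and Chgb lie after the start and that of Pcsk1 before it. The TATA box of Chga lies before the GENCODE start. A match of letters is a description of the window and not a measured binding site. The 3 genes with the full element did not share a pattern over the libraries, as their values show.

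The levels of the 10 genes, which FPKM scales to transcript length, spanned a wide range. Cpe, which encodes the carboxypeptidase that trims basic residues, had a mean of 814 FPKM over the 6 libraries and ranked 12 among all listed genes. Scg2 (mean 179 FPKM), Chgb (171) and Pcsk1n (136) followed, then Scg5 (107), Vgf (101), Scg3 (86.1), Chga (62.5) and Pcsk2 (34.0), with Pcsk1 the lowest at 7.40. Neighbours in this order kept it in 6 of 6 libraries, except for 3 pairs. Scg2 exceeded Chgb in 4 of 6 libraries, Scg5 exceeded Vgf in 5 of 6, and Vgf exceeded Scg3 in 5 of 6. The ranges over the 6 libraries overlapped in those 3 pairs.

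**Figure D1:**
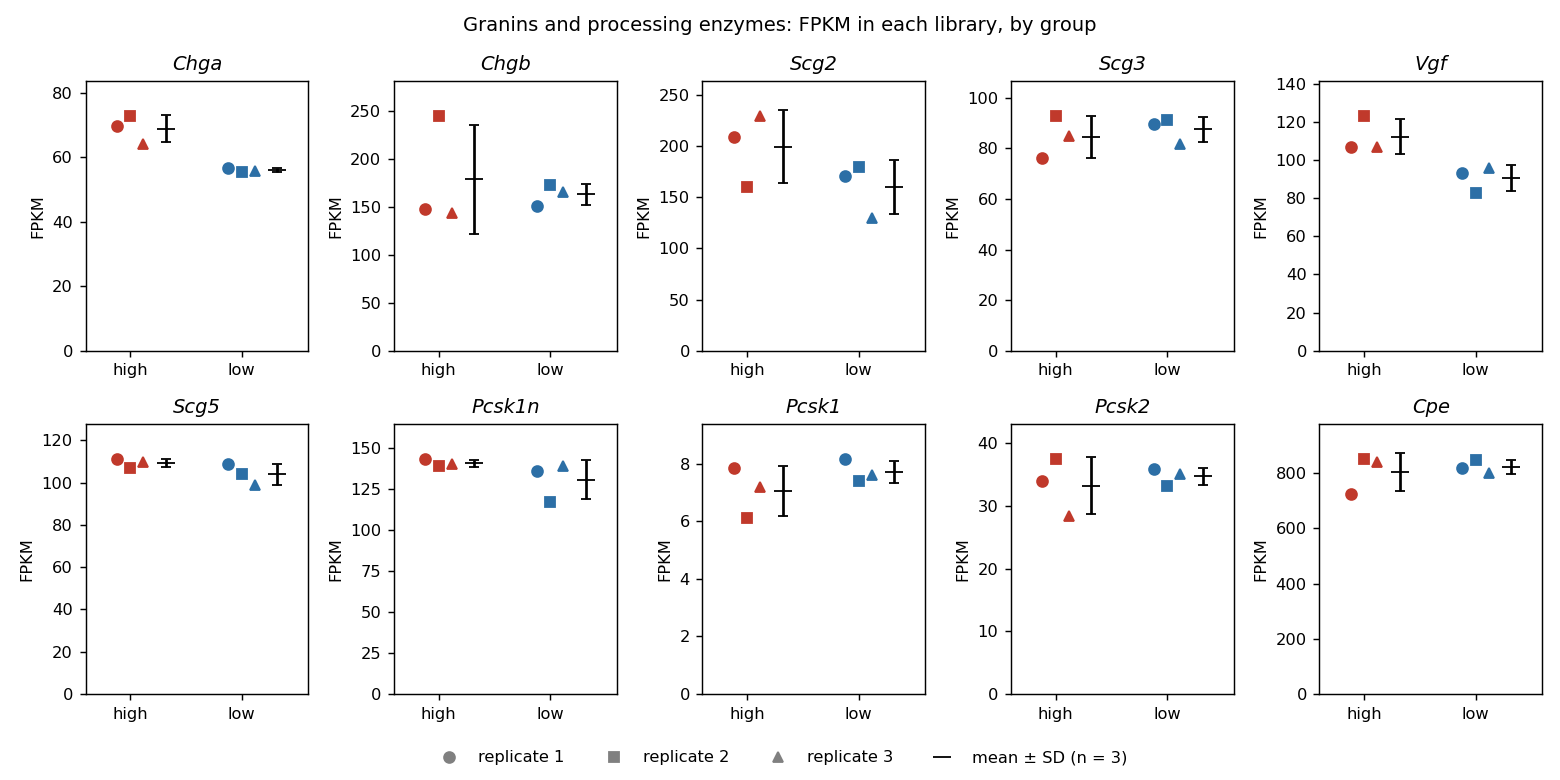
FPKM of each of the 10 genes (vertical axis, from 0) in the 3 high and the 3 low libraries, with symbols for the replicate numbers and the mean ± SD beside each group. The high libraries lie above all low libraries for Chga and Vgf, and the groups overlap for the other genes.

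Between the groups, Chga and Vgf had higher values in each high library than in any low library, with means 1.23 times those of the low group for both genes, and neither passed the test over all genes. Groups did not overlap with the high group above in 2 of the 10 genes, against 7.33% of all tested genes, and with the high group below in 0 of the 10, against 7.61%. Of 12026 tested genes, limma called 0 at an adjusted p under 0.05, or 0.0%, so 0 of the 10 genes passed. The unadjusted p was under 0.05 for Chga and Vgf, 2 of the 10 genes, against 8.39% of all tested genes. The median log2 difference, taken as the high mean minus the low mean of log2(FPKM + 1), was 0.08 over the 10 genes and 0.0 over all tested genes, with 6 of the 10 genes above 0 and 4 below, where 50.1% of all tested genes were above 0. That median of the 10 genes was 0.027 without high library 2, 0.0539 without low library 2, 0.0335 without low libraries 1 and 3, 0.019 with array weights and -0.00583 with high library 2 and low library 2 both left out. The 6 genes above 0 were 4 of the 5 granins (Chga, Chgb, Scg2 and Vgf) and both partner proteins of the convertases. The 4 below 0 were Scg3 and the 3 enzymes. The signs of Chgb, Scg3, Pcsk2 and Cpe turned when a single library was left out. With a trend on GC content and length removed, each of the 10 genes kept its sign, with Pcsk1 at -0.0026. Transcript GC content was 53.9% to 64.1% in Chga, Chgb, Vgf and Pcsk1n, and 40.6% to 49.7% in the 4 genes below 0. It was 46.8% in Scg2 and 48.1% in Scg5. The part of base composition in this split was not tested.

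Chga encodes chromogranin A, a granin that is also the precursor of several peptides. High libraries 1 to 3 had 69.8, 72.8 and 64.3 FPKM, and low libraries 1 to 3 had 56.8, 55.6 and 55.8. The low libraries lay close together, and the lowest high library stood above all of them. The group means were 68.9 ± 4.33 and 56.1 ± 0.665 FPKM (SD, n = 3), a ratio of 1.23. The log2 difference was 0.29 (SE 0.0649, 95% interval 0.14 to 0.44), with a limma adjusted p of 0.496. The exact 2-sided permutation p of the means was 0.1, the smallest that 3 against 3 libraries can give. The authors' deposited table gives Chga a log2 fold change of 0.298 and an unadjusted p of 0.00701 from its equal-variance test. That p ranks 148 among its genes, against 92.3 genes that chance alone would put at that p or lower. Benjamini-Hochberg adjustment of the deposited p-values gave 0.615 for Chga.

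Vgf encodes a granin-like precursor of several peptides and is known to be induced by neurotrophins and neuronal activity. High libraries 1 to 3 had 107, 123 and 107 FPKM, and low libraries 1 to 3 had 93.3, 82.9 and 95.7. High library 2 was the highest and low library 2 the lowest. The group means were 112 ± 9.25 and 90.6 ± 6.85 FPKM (SD, n = 3), a ratio of 1.23. The log2 difference was 0.30 (SE 0.0850, 95% interval 0.10 to 0.50), with a limma adjusted p of 0.548 and an exact permutation p of 0.1. The authors' deposited table gives Vgf a log2 fold change of 0.304 and an unadjusted p of 0.0329 from the same equal-variance test. That p ranks 638, against 433 genes by chance alone, and its Benjamini-Hochberg adjusted value was 0.653.

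Base composition moved with the difference of the group means, though not in every library. Over the tested genes, the log2 difference had a Spearman rho of 0.387 with transcript GC content. Transcript GC content was related to how far a library lay from the average of the other 5, taken over genes, which do not replicate each other. The Spearman rho was 0.0866, 0.437 and -0.102 in high libraries 1 to 3 and -0.224, -0.490 and 0.0369 in low libraries 1 to 3. High library 2 and low library 2 were the extremes, and high library 3 and low library 3 went the other way from their groups. The Vgf transcript has a GC content of 64.1%, higher than in 99.4% of the listed genes with a known sequence, and the Chga transcript 58.4%, higher than in 90.8%. With a trend on GC content and length removed, the log2 difference was 0.25 for Vgf and 0.24 for Chga (limma adjusted p of 0.501 and 0.529). With high library 2 and low library 2 both left out, it was 0.17 for Vgf and 0.25 for Chga.

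Scg2 encodes secretogranin II, the precursor of secretoneurin, and had the largest mean difference of the 10 genes, with overlapping groups. High libraries 1 to 3 had 209, 160 and 229 FPKM, and low libraries 1 to 3 had 171, 179 and 130. High library 2 lay below 2 of the low libraries. The means were 199 ± 35.8 and 160 ± 26.6 FPKM (SD, n = 3), with a log2 difference of 0.31 (SE 0.161, 95% interval -0.06 to 0.68) and a limma adjusted p of 0.607. The difference was 0.17 without low library 3, 0.20 without high library 3 and 0.46 without high library 2.

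Chgb encodes chromogranin B, and 1 high library stood far above the rest. High libraries 1 to 3 had 148, 245 and 144 FPKM, and low libraries 1 to 3 had 151, 173 and 166. That was high library 2, while the other high libraries were the lowest of the 6. The log2 difference was 0.09 (SE 0.189, limma adjusted p = 0.901), and without high library 2 it was -0.16. Scg3 encodes secretogranin III, which links chromogranin A to the vesicle membrane, and had 76.1, 92.7 and 84.9 FPKM in the high group against 89.6, 91.1 and 81.9 in the low group. Its groups overlapped, with means of 84.6 ± 8.28 against 87.5 ± 4.97 FPKM (SD, n = 3). Its log2 difference was -0.05 (SE 0.0856, limma adjusted p = 0.866).

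**Figure D2:**
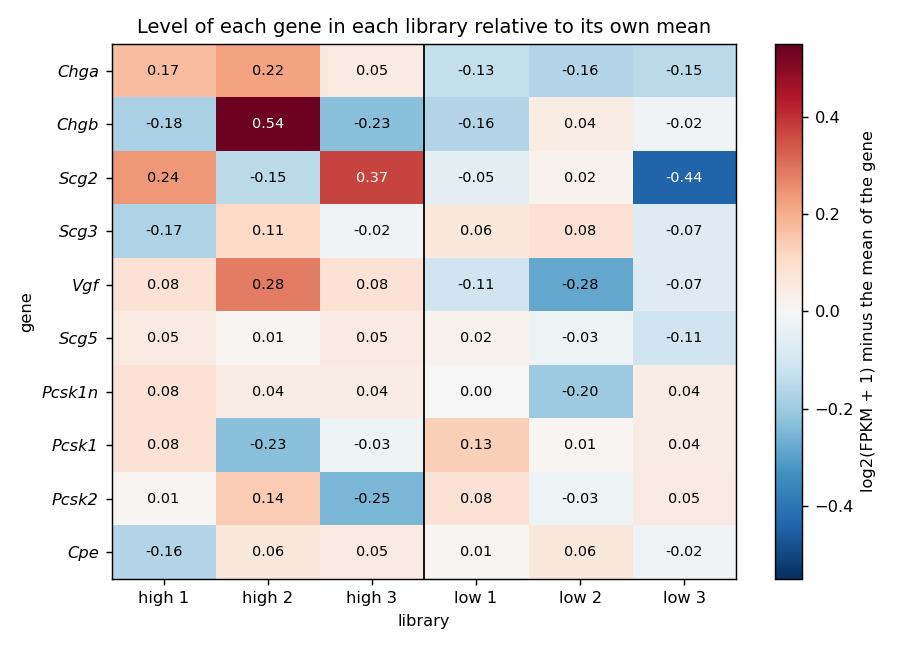
Each cell gives log2(FPKM + 1) of a gene in a library minus the mean of that gene over the 6 libraries, with genes in rows, libraries in columns and a line between the groups. Chga and Vgf are above 0 in the 3 high libraries and below 0 in the 3 low libraries, while Chgb peaks in high library 2 (0.54) and Scg2 is lowest in low library 3 (-0.44).

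The 3 enzymes did not pass the test and had means that were slightly lower in the high group. Pcsk1 encodes the convertase that makes early cuts in many precursors, and it had 7.87, 6.13 and 7.20 FPKM in the high group against 8.16, 7.42 and 7.63 in the low group. The low libraries lay within the span of the high libraries except for low library 1, the highest. The log2 difference was -0.12 (SE 0.0918, 95% interval -0.33 to 0.09, limma adjusted p = 0.719). It was -0.03 without high library 2, where Pcsk1 was lowest, and -0.19 without high library 1. With the GC and length trend removed it was -0.0026, and the Pcsk1 transcript has a GC content of 40.6%, higher than in only 7.05% of the listed genes. Pcsk2 encodes the second neuroendocrine convertase, which makes later cuts. It stood at 34.0, 37.4 and 28.3 FPKM in the high group against 35.8, 33.2 and 35.1 in the low group. High library 3 was the lowest and high library 2 the highest. The log2 difference of Pcsk2 was -0.07 (SE 0.0994, limma adjusted p = 0.847), and without high library 3 it was 0.04.

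Cpe stood at 726, 850 and 840 FPKM in the high group against 818, 849 and 800 in the low group, so that high library 1 was the lowest and the other high libraries lay near the low libraries. Its log2 difference was -0.03 (SE 0.0918, 95% interval -0.25 to 0.18, limma adjusted p = 0.929), and without high library 1 it was 0.04. Over the 6 libraries Cpe had a coefficient of variation of 5.81%, against 22.1% for Chgb and 19.8% for Scg2.

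Each convertase has a partner protein in this set. Scg5 encodes the chaperone that the Pcsk2 convertase needs to mature, and Pcsk1n encodes proSAAS, an inhibitor of the Pcsk1 convertase. Scg5 had 111, 107 and 110 FPKM in the high group against 109, 104 and 99.1 in the low group, the smallest spread of the 10 genes, with a coefficient of variation of 4.12%. High library 2 lay below low library 1, so the groups overlapped. The log2 difference of Scg5 was 0.07 (SE 0.0617, 95% interval -0.07 to 0.22, limma adjusted p = 0.737). Pcsk1n had 143, 139 and 140 FPKM in the high group against 136, 117 and 139 in the low group. Low library 2 stood below the other 5, and the groups overlapped. The log2 difference of Pcsk1n was 0.11 (SE 0.0780, limma adjusted p = 0.712), and without low library 2 it was 0.03.

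Ratios of FPKM within a library do not depend on how the library was scaled, and the groups overlapped in each of the 4 ratios computed. The ratio of Pcsk1n to Pcsk1 was 18.2, 22.6 and 19.4 in the high group against 16.6, 15.8 and 18.3 in the low group. The high library with the smallest ratio lay just below the low library with the largest. The exact permutation p was 0.2, and 0.8 adjusted over the 4 ratios. The log2 difference of this ratio, 0.24, was 0.15 without high library 2 and 0.11 with high library 2 and low library 2 both left out. The Pcsk1n transcript has a GC content of 57.3% and the Pcsk1 transcript 40.6%. The part of base composition in this ratio was not tested. The ratio of Scg5 to Pcsk2 was 3.34 ± 0.522 against 3.00 ± 0.165 for high and low (SD, n = 3, exact permutation p = 0.4, adjusted p = 0.8). Its log2 difference of 0.15 was 0.03 without high library 3, 0.25 without high library 2 and 0.29 with high library 2 and low library 2 both left out. The ratio of Pcsk1 to Pcsk2 was 0.217 ± 0.0470 and 0.223 ± 0.00537 (exact permutation p = 1.0). The ratio of Vgf to Scg2 was 0.581 ± 0.164 and 0.583 ± 0.142 (exact permutation p = 1.0). It was highest in high library 2 (0.768) and low library 3 (0.739), where Scg2 was lowest.

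**Figure D3:**
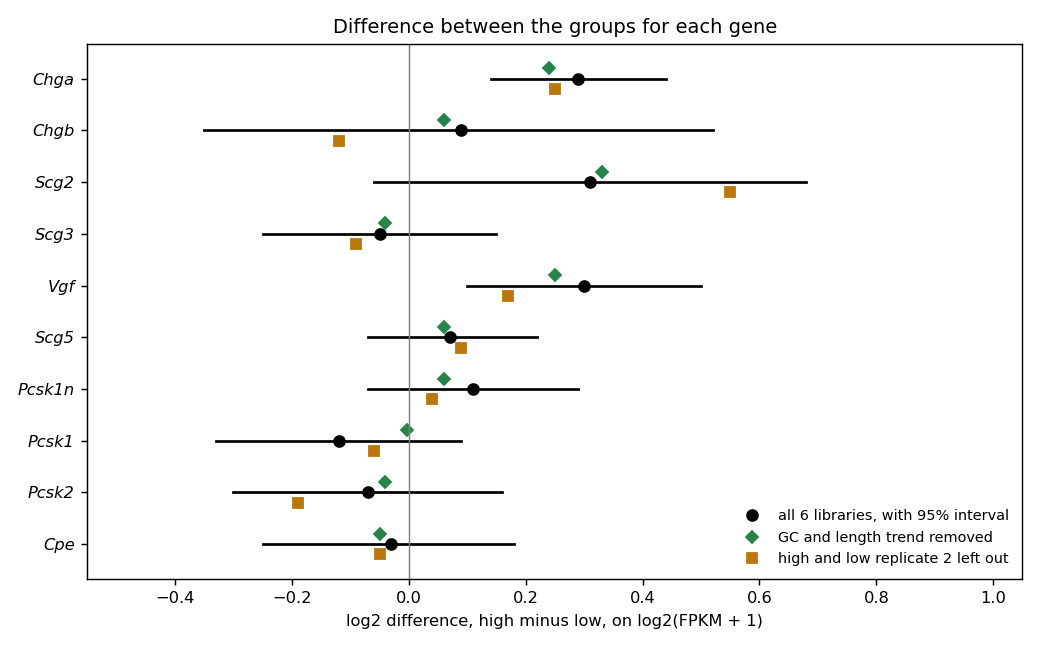
Log2 difference, high minus low (horizontal axis), for each of the 10 genes, with the limma 95% interval for all 6 libraries, and with the values after removal of the GC and length trend and with replicate 2 of each group left out. The intervals of Chga (0.14 to 0.44) and Vgf (0.10 to 0.50) lie above 0 before adjustment for the number of genes, and Chgb changes sign when the replicates are left out.

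Chga and Vgf had the most similar patterns among the 10 genes, with a Pearson r of 0.910 between their log2 values over the 6 libraries. Scg3 and Cpe followed at 0.899, and Scg2 and Scg5 at 0.864. Pcsk1 was least like Chgb, at -0.856. Over all tested genes, those most similar to Chga were Hhatl (r = 0.994), Sirt6 (0.989) and Nsmce4a (0.989). These coefficients describe 6 libraries that share a preparation protocol and differ in base composition, and they carry no test. Sirt6, a deacetylase of chromatin, had 8.81, 8.94 and 8.51 FPKM in the high group against 7.73, 7.81 and 7.78 in the low group.

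Among 32 tested genes of the machinery that builds, carries and releases dense-core vesicles, 18 had a log2 difference above 0 and 14 below, with a median of 0.01. None passed in limma, and the unadjusted p was under 0.05 for 3 genes above 0 and 1 below, 4 of 32, where 8.39% of all tested genes had such a p (495 above 0 and 514 below). Groups did not overlap with the high group above in 3 of the 32, against 7.33% of all tested genes. They did not overlap with the high group below in 2 of the 32, against 7.61%. Rph3a, the gene of rabphilin, a Rab3 and Rab27 effector on secretory vesicles, had 106, 107 and 99.2 FPKM in the high group against 83.0, 83.6 and 86.4 in the low group. The groups did not overlap (log2 difference 0.30, SE 0.0605, limma adjusted p = 0.471). Resp18, which encodes a luminal protein of the secretory pathway in endocrine and neuronal cells, had 128, 109 and 139 FPKM in the high group against 107, 107 and 90.8 in the low group (log2 difference 0.30, SE 0.107, limma adjusted p = 0.575). Its order over the high libraries was that of Scg2, with high library 3 highest and high library 2 lowest, and low library 3 was the lowest of all for both. Gnas, an imprinted locus that also encodes a granin-like protein, had 8.41 ± 1.4 against 6.63 ± 0.655 FPKM (SD, n = 3). Antisense transcripts overlap Gnas, and the sources used here do not say whether strand was used in counting. The most abundant genes of this list, the vesicle GTPase gene Rab3a (240 ± 13.9 against 229 ± 17.0 FPKM) and the kinesin gene Kif1a (222 ± 8.78 against 213 ± 5.24), overlapped between the groups.

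Of 19 tested further processing and degrading enzymes, 10 were above 0 and 9 below, with a median log2 difference of 0.0. None passed in limma, and the unadjusted p was under 0.05 for 0 genes above 0 and 1 below, against the same 8.39%. Cpd encodes a carboxypeptidase of the trans-Golgi network and had its 3 lowest values in the high group, at 8.89 ± 0.711 against 10.5 ± 0.522 FPKM (log2 difference -0.21, SE 0.0757, limma adjusted p = 0.575). Pam, which encodes the enzyme that amidates peptide ends, had 17.3 ± 0.169 against 15.9 ± 1.17 FPKM without overlap (log2 difference 0.11, SE 0.0687, limma adjusted p = 0.663). Pcsk5, a further convertase gene, had 1.63 ± 0.371 against 2.21 ± 0.323 FPKM. The protease genes Ctsb (87.8 ± 3.15 against 83.1 ± 4.95) and Ecel1 (16.7 ± 2.30 against 18.2 ± 1.77) overlapped between the groups.

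Precursors that these proteins package and cut were tested for 23 genes, of which 16 were above 0 and 7 below, where 50.1% of all tested genes were above 0, with a median log2 difference of 0.07. None passed in limma, and the unadjusted p was under 0.05 for 3 genes above 0 and 2 below, 5 of 23, against 8.39% of all tested genes. Adcyap1, the gene of PACAP, had 12.5, 9.55 and 11.7 FPKM in the high group against 7.65, 9.05 and 6.79 in the low group (log2 difference 0.47, SE 0.121, limma adjusted p = 0.519). Every high library was above every low library. Sst, the somatostatin gene and the most abundant precursor, had 409, 410 and 425 FPKM against 381, 345 and 370, without overlap (log2 difference 0.18, SE 0.0719, limma adjusted p = 0.582). Oxt, the oxytocin gene, had 1.57, 1.86 and 5.06 FPKM in the high group against 0.679, 0.835 and 0.137 in the low group. High library 3, where Avp and Trh of the hypothalamic marker list were also highest, was far above the other high libraries. Grp, the gene of gastrin-releasing peptide, stood at 10.6 ± 2.01 against 15.4 ± 3.65. Penk, the enkephalin precursor gene, varied widely within both groups, at 207, 88.4 and 163 FPKM in the high group against 111, 174 and 62.1 in the low group. Its lowest libraries, high library 2 and low library 3, were also those of Scg2.

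Genes induced by neuronal activity, other than members of the set, were tested for 18 genes, with 10 above 0, 8 below, and a median log2 difference of 0.02. None passed in limma, and the unadjusted p was under 0.05 for 1 gene above 0 and 1 below, against 8.39% of all tested genes. Homer1, a postsynaptic scaffold gene, had its 3 lowest values in the high group, at 4.78 ± 0.529 against 6.23 ± 0.724 FPKM (log2 difference -0.32, limma adjusted p = 0.553). Ier2, an immediate early gene, was higher in every high library at 3.14 ± 0.174 against 2.57 ± 0.264 (log2 difference 0.21, limma adjusted p = 0.583). The early genes Egr1 (32.3 ± 7.18 against 30.5 ± 2.79 FPKM), Egr2 (1.39 ± 0.301 against 2.12 ± 0.900) and Arc (28.2 ± 4.59 against 25.0 ± 4.94) overlapped.

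**Figure D4:**
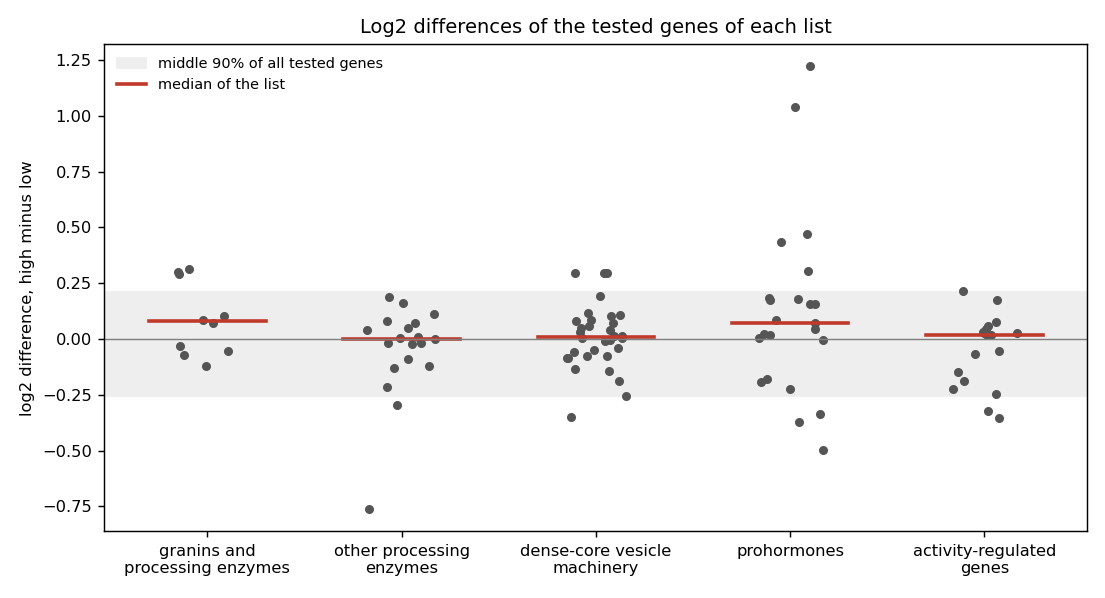
Log2 difference, high minus low (vertical axis), of every tested gene in 5 lists, with a red line at the median of each list and a grey band between percentiles 5 and 95 of all tested genes (-0.25 to 0.21). Chga, Vgf and Scg2 lie above the band, and the list medians lie between 0.0 and 0.08.

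The tissue was checked against region markers, since peptide genes differ between brain regions. Of 14 medial amygdala markers, 12 were in the table, and Lhx5 and Cyp19a1 were not listed. Their summed FPKM was 58.4 to 73.8 in the high libraries and 72.5 to 74.6 in the low libraries. Bhlhe22 weighed heavily in this difference, at 9.24, 21.3 and 11.7 FPKM in the high group against 22.2, 21.1 and 26.1 in the low group. Of the 10 tested markers of this list, 5 had a log2 difference above 0 and 5 below. All 10 cortical markers were listed, with sums of 261, 343 and 198 FPKM in the high group against 270, 242 and 309 in the low group, most of it from the vesicular glutamate transporter gene Slc17a7. Chgb, like this sum, was highest in high library 2 and lowest in high library 3. Scg2 and Penk were at their lowest in high library 2 and low library 3, where the cortical sum was highest. The part of cortical tissue in these values was not tested. In bulk tissue, fewer cells of a type and less RNA per cell cannot be told apart.

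**Figure D5:**
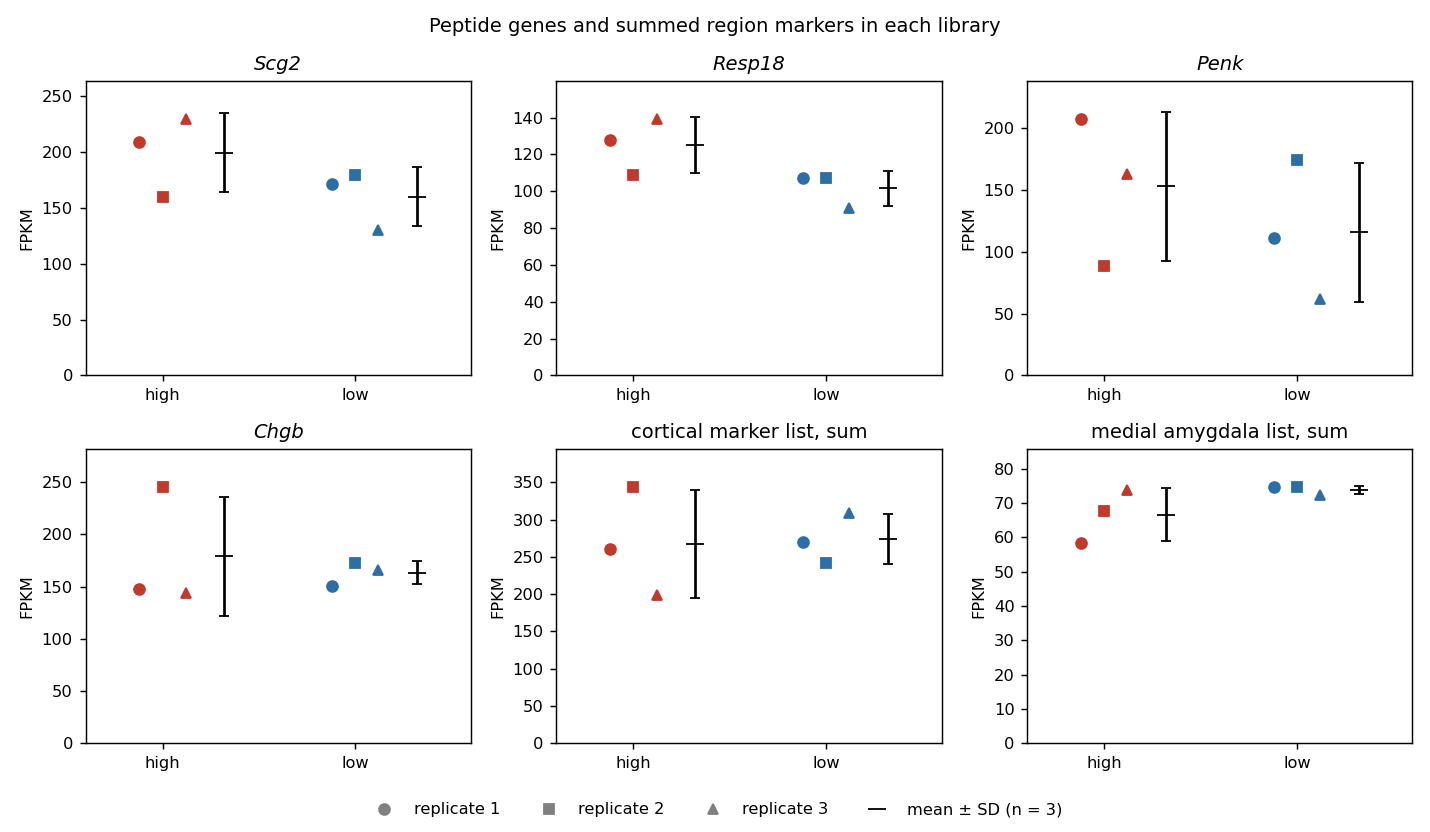
FPKM of Scg2, Resp18, Penk and Chgb and summed FPKM of the cortical and medial amygdala marker lists (vertical axes, from 0) in the 3 high and the 3 low libraries, with the mean ± SD beside each group. High library 2 and low library 3 have the highest cortical sums (343 and 309) and the lowest Penk values (88.4 and 62.1).

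Other markers also moved between libraries. All 10 pan-neuronal markers were listed, with a sum of 956 to 1080 FPKM in the high libraries and 940 to 1010 in the low libraries. Hypothalamic markers, a region rich in granins, had 6 of 10 genes listed, and summed to 33.7 FPKM in high library 3 against 9.72 to 16.0 in the other 5. Avp (15.8 FPKM), Trh (10.1) and Oxt (5.06) made up most of that sum and were highest there. The others did not follow: Pomc was at 0.540 FPKM in that library, near its lowest, Agrp at 1.28 was below its 2.01 in high library 1, and Nkx2-1 stayed under 1 FPKM in all 6. Choroid plexus markers summed to 1325 and 4126 FPKM in low libraries 1 and 3 and to 38.6 to 108 in the other 4, and ependymal markers to 10.8 to 12.8 in the high group and 18.8 to 38.4 in the low group. Without low libraries 1 and 3 a single low library remains, whose spread is taken from the high group. In that fit the log2 differences were 0.30 for Chga, 0.43 for Vgf, 0.13 for Scg2 and 0.26 for Pcsk1n. The low library left was low library 2, which had the lowest Spearman rho with GC content (-0.49) of the 6 libraries. Chga, Vgf and Pcsk1n had their lowest values there. Oligodendrocyte markers were above 0 in 6 of 6 genes, with a median log2 difference of 0.20.

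In the GENCODE annotation of GRCm38, Chga lies on chromosome 12 from 102554969 to 102565028, Vgf on chromosome 5 from 137026392 to 137033351, Scg2 on chromosome 1 from 79434669 to 79440120 and Scg3 on chromosome 9 from 75643189 to 75684056. Chromosome 2 holds Scg5 (113776362 to 113829121), Chgb (132781278 to 132795079) and Pcsk2 (143546156 to 143816285). Pcsk1 lies on chromosome 13 from 75089826 to 75134861, Cpe on chromosome 8 from 64592542 to 64693054 and Pcsk1n on chromosome X from 7919822 to 7924410. Exons on the opposite strand overlap Pcsk2 (Pcsk2os1 and Pcsk2os2) and Pcsk1n (Eras), and those genes are not listed in the table. For the other 8 genes the annotation shows no exon of another gene over their exons.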

How the data were processed

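The deposited values are FPKM, which the authors supplied in 1 table with a column per library, made with fastp, StringTie and HISAT2 on GRCm38, per the submitters' processing notes, which give no versions. The table has 0 values at 0 and a lowest mean of 0.500 FPKM. The authors' deposited log2 fold change equals log2 of the ratio of mean FPKM in all 13170 rows (tolerance 1e-06), and the authors' deposited p-value equals an unadjusted equal-variance test of FPKM in all 13170 rows (relative tolerance 0.01). FPKM hold no counts, so absolute depth is unknown. Libraries correlated at 0.979 to 0.991 across genes. Principal component 1 (38.5% of the variance) scored highest in low libraries 3 (19.6) and 1 (9.27), and component 2 (25.5%) set high library 2 apart.

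The fit used log2(FPKM + 1) of genes averaging at least 1 FPKM, and limma 3.58.1 (R 4.3.3) compared the high and low groups with a variance trend, 2-sided tests and Benjamini-Hochberg adjustment over all tested genes at 0.05. A log2 difference on this scale understates the change of low genes. The script was tested on simulated data. Single values and ratios used exact permutation tests. GC content and length were those of the longest GENCODE transcript, known for 99.2% of tested genes. Python 3.11.15, numpy 2.4.6, pandas 2.3.3, scipy 1.17.1, statsmodels 0.14.6 and matplotlib 3.10.9 served the other steps. The members, lists and alternatives were chosen with earlier results of these data known. Named genes are the 10 members, the 3 smallest p and the 2 highest mean FPKM of each pathway list, and the 3 genes most like the member with the smallest p. Alternatives were other pseudocounts, filters, scaling, weights and trends, the replicate number as a block, and libraries left out.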

Additional observations from a re-analysis of the deposited data

How the results depend on the processing

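Under all 17 alternatives limma called 0 of the 10 genes, 0 genes of the 4 pathway lists and 0 genes over the whole table at an adjusted p under 0.05. At an unadjusted p under 0.05 there were 361 to 1567 genes, with the lower count when low libraries 1 and 3 were left out and the higher with array weights. Chga and Vgf had an unadjusted p under 0.05 in each of them, with log2 differences of 0.24 to 0.34 and 0.17 to 0.43, and adjusted p of 0.159 to 0.979 and 0.230 to 0.979. Scg2, Scg5, Pcsk1 and Pcsk1n kept their sign in all 17. The median log2 difference of the 10 genes was 0.019 with array weights, 0.056 with the GC and length trend removed, with or without the replicate block, 0.0335 with low libraries 1 and 3 left out, and -0.00583 with high library 2 and low library 2 left out, an alternative chosen after seeing the data. It ranged from 0.027 to 0.089 when each library was left out in turn. The sign of Chgb turned with array weights (-0.03), without high library 2 (-0.16), with low libraries 1 and 3 left out (-0.00044) and with both replicates 2 left out (-0.12), and its range over single libraries left out was -0.16 to 0.22. It also turned for Scg3 (0.02) and Cpe (0.04) without high library 1 and for Pcsk2 (0.04) without high library 3. The log2 difference of the Pcsk1 to Pcsk2 ratio, -0.07, was 0.12 without high library 2 and 0.13 with both replicates 2 left out, with a range of -0.19 to 0.12 over single libraries left out. That of the Vgf to Scg2 ratio, -0.01, was 0.06 without high library 1, 0.13 without high library 3, 0.17 without low library 3 and 0.30 with low libraries 1 and 3 left out, with a range of -0.23 to 0.17 over single libraries left out. The cause of these turns was not tested. The deviations of same-numbered libraries from their group means correlated at -0.0939, -0.206 and -0.156, and those of differently numbered libraries at -0.0294 to 0.183. Deviations within a group of 3 sum to 0, so these values cannot show whether the libraries were paired. With the replicate number as a block, limma called 0 genes and 743 had an unadjusted p under 0.05, against 1009 without it. The median of the 10 genes was 0.0809 with the block and the Pcsk1n to Pcsk1 log2 difference 0.24. Depth limits cannot be stated because FPKM hold no counts, and 3 libraries per group limit the precision.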
